A study of Mus musculus with 17 samples.

Results

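Oxidative phosphorylation subunits are the proteins that build the 5 complexes of the mitochondrial respiratory chain and ATP synthase, and their messages were followed here in mouse common myeloid progenitors. Members were taken by symbol: genes beginning with Nduf (without the Ndufaf assembly factors), Uqcr or Atp5, the genes Sdha to Sdhd, Cyc1, and the Cox4 to Cox8 genes, with pseudogenes left out. The rule found 86 of 24416 genes in the count tables: 38 of complex I, 4 of complex II, 9 of complex III, 18 of complex IV and 17 of complex V. Subunits encoded in mitochondrial DNA carry other symbols and are not members.

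Complexes I and II pass electrons from NADH and succinate to ubiquinone, complex III passes them on to cytochrome c, and complex IV hands them to oxygen. Complexes I, III and IV pump protons as they do so, and complex V, the ATP synthase, lets the protons back to make ATP. Blood-forming stem cells are known for relying little on this pathway, and nuclear genes for its subunits are known targets of factors such as NRF1, GABP and YY1.

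Common myeloid progenitors, which give rise to granulocytes, monocytes, erythrocytes and platelets, had been sorted by flow cytometry from fetal liver or adult bone marrow, and total RNA was sequenced in 17 libraries of 7 groups. The groups were wild-type adult bone marrow (n = 3), wild-type fetal liver (n = 3), fetal liver labelled Lin28b KO (n = 3), adult bone marrow of a let-7b/c knock-out (n = 3), adult bone marrow with inducible LIN28B (n = 2), adult bone marrow with inducible LIN28B and vavcre (n = 2), and fetal liver with inducible let-7 (n = 1). The let-7b/c knock-out was on the strain called albino black 6 and the other groups on C57BL/6J, so strain and genotype cannot be told apart in that comparison. The treatment given for all 17 libraries, wild-type ones included, was doxycycline to induce Lin28b. The design text describes the vavcre line as inducing LIN28B in blood-forming cells specifically. Neither ages nor numbers of animals per library are stated in the sources used. A p-value below therefore reflects only how much libraries varied within groups, and some of that variation may be technical. The variation was estimated over all groups in a shared fit, not from the compared groups alone.

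The LIN28B protein binds let-7 precursors and blocks their maturation. Its mouse message Lin28b stood at 89.3 to 124 CPM (edgeR's count scaled for depth, on TMM library sizes) in wild-type fetal liver and at 0.0586 to 0.745 CPM in wild-type bone marrow. Libraries with the Lin28b knockout label held 88.9 to 112 CPM, so a loss of the message was not seen there, and they are called by their label below. Mouse Lin28b was at 2.06 to 3.28 CPM in the inducible LIN28B line lacking vavcre and at 1.73 to 3.92 CPM in the vavcre line. These values lay above wild-type marrow and far below wild-type liver. How far LIN28B was induced was not measured otherwise, so these lines are also called by their labels. The let-7b and let-7c hairpin genes had at most 1 count over all libraries and check nothing. Total counts ran from 14957111 to 28165554 per library. Of 10 progenitor markers, Kit, Cebpa and Runx1 were at 0 counts in every library. The counting set aside reads that fitted more than 1 RefSeq transcript. Of 5108 genes with several transcripts, 1328 had 0 counts in all, so a 0 need not mean that a message was absent. The whole marker list summed to 952 to 1202 CPM in the wild-type libraries and to 266 to 387 CPM in those labelled Lin28b knockout. The inducible let-7 library had counts in 10144 genes and the vavcre libraries in 12079 and 12635, against 13660 to 15644 in the other 14 libraries.

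Of the 86 members, 74 passed the filter on low counts and were tested. Since a gene can pass that filter through 1 high group, levels are also described over the 65 members that averaged at least 10 CPM over all 17 libraries, called measured members below. The lowest of these averaged 22.5 CPM, and the highest of the other 21 averaged 3.11 CPM. Of the 21, 13 have several RefSeq transcripts, and the counting set aside reads that fitted more than 1 transcript. Cox4i1, the general form of subunit 4 of complex IV, had 20 counts in all over its 2 transcripts, and Ndufs1, a core subunit of complex I, had 0 over 4 transcripts. Such low counts say little of expression.

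Per kilobase of transcript, which allows levels of different genes to be set side by side, Atp5b (NM_016774, chromosome 10, 128083307 to 128090388 in GRCm38.p6) was highest in both wild-type tissues, at 728 CPM per kilobase in bone marrow and 1245 in fetal liver. It encodes the catalytic β subunit of ATP synthase. Its partner Atp5a1, the α subunit, followed at 525 and 820.4 CPM per kilobase. Ndufa4, grouped with complex I by its symbol although the protein is now placed in complex IV, came next at 519 and 694 CPM per kilobase.

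Subunit messages were higher in fetal liver than in bone marrow progenitors, in all 5 complexes. Summed over the 86 members they made up 11873 to 13168 CPM in the wild-type bone marrow libraries and 16753 to 18156 CPM in the wild-type fetal liver libraries. The ranges did not overlap for any complex. Complex I summed to 3364 to 3679 CPM in marrow and 4378 to 4813 CPM in liver, and complex V to 3973 to 4668 CPM and 6284 to 6786 CPM. In bulk libraries, more cells of a type and more RNA per cell cannot be told apart.

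**Figure D1:**
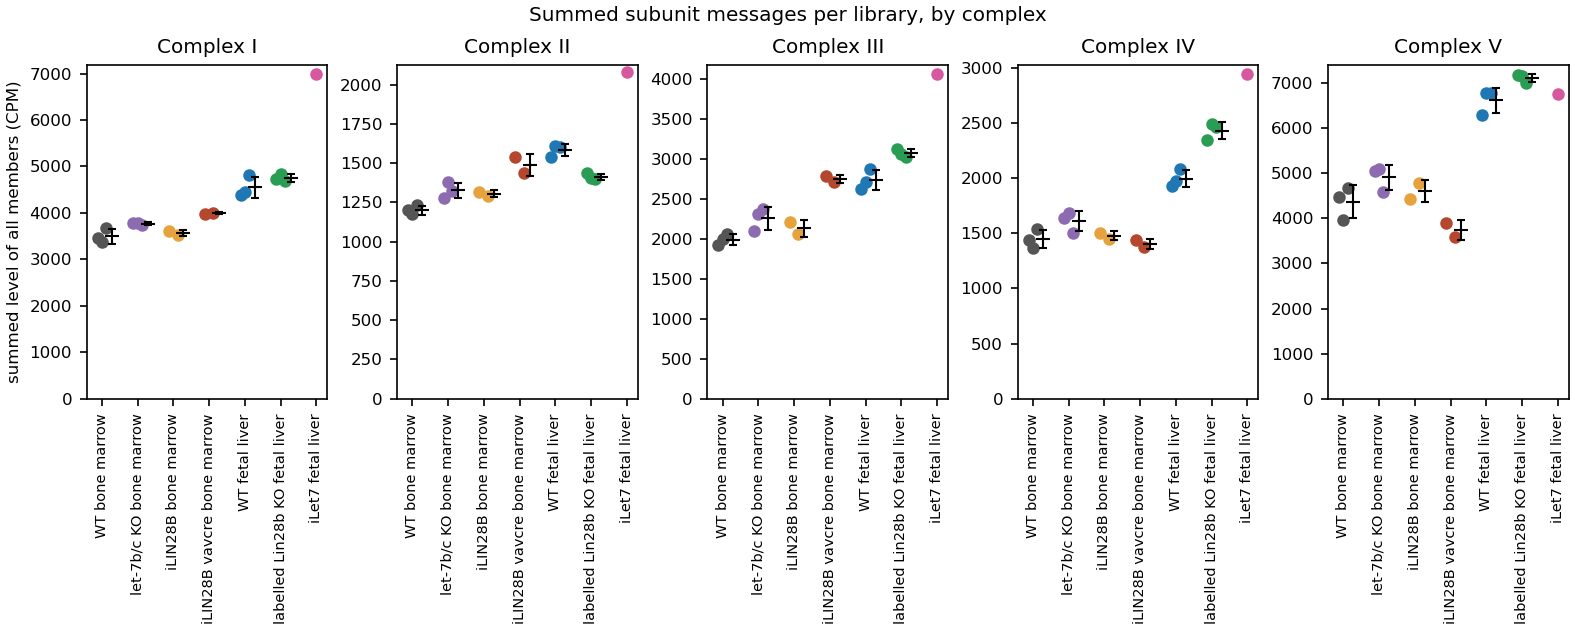
Summed CPM of all members of each complex (vertical axis, from 0) in each of the 17 libraries (points), by group, with the mean ± SD of groups of 2 or more beside them. Wild-type fetal liver lies above wild-type bone marrow in every panel. The vavcre libraries, at 3587 and 3906 CPM, are the lowest group for complex V, whose sum comes mostly from Atp5b and Atp5a1.

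In edgeR's quasi-likelihood test over 13558 genes, with calls at an adjusted p under 0.05, 55 of the 74 tested members were higher in fetal liver and 0 lower. Of all genes tested, 13.9% were called higher and 13.2% lower. No member was lower at an unadjusted p under 0.05, against 19% of all genes, and DESeq2 called 56 higher and 0 lower, against 15.5% and 15.8% of the genes it tested. The 65 measured members had a median log2 fold change of 0.43, against -0.08 over all genes, and 57 of them were higher in every fetal liver library than in any marrow library. The same held for 22.7% of all tested genes and for 33.2% of the 6954 genes that averaged at least 10 CPM. The differences were small and alike in size: the quartiles of the measured members were 0.31 and 0.54 on the log2 scale.

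In complex I, 24 of 34 tested members were called. Ndufa9, an accessory subunit near the ubiquinone site, stood at 207, 196 and 225 CPM in marrow and at 299.7, 314 and 331 CPM in fetal liver. The groups did not overlap, and the fold was 1.503 (log2 0.59, SE 0.07, adjusted p = 1.98e-05). Ndufab1, the mitochondrial acyl carrier protein, was 1.51-fold higher (adjusted p = 7.06e-05) and the membrane arm subunit Ndufb8 1.40-fold (adjusted p = 7.70e-05). Ndufa1, a small membrane arm subunit encoded on the X chromosome, had the lowest log2 difference of the measured members, -0.14, and was not called. Its values were 49.9, 42.7 and 55.8 CPM in marrow and 45.6, 43.5 and 45.6 CPM in liver, which overlap. Ndufb11, Ndufa6 and Ndufa3 were not called either, at log2 differences of 0.02, 0.02 and 0.06.

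All 4 subunits of complex II, which is also the succinate dehydrogenase of the citric acid cycle, were called higher. Sdhd, a membrane anchor, stood at 234, 223 and 245 CPM in marrow and at 366, 387 and 406 CPM in liver, without overlap (1.65-fold, adjusted p = 3.88e-06). The iron-sulfur subunit Sdhb was 1.44-fold higher (adjusted p = 0.000232) and the other anchor, Sdhc, 1.35-fold (adjusted p = 0.0134). The flavoprotein Sdha, the catalytic subunit, differed least of the 4, with 652, 646 and 630.0 CPM in marrow and 742, 772 and 707 CPM in liver.

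In complex III, 8 of 9 members were called. Cyc1, cytochrome c1, stood at 211, 203 and 210.3 CPM in marrow and 316, 331 and 336 CPM in liver (1.57-fold, SE of the log2 value 0.06, adjusted p = 9.44e-07). The groups lay far apart relative to their spread. The small subunits Uqcr10 and Uqcrq were 1.52-fold and 1.49-fold higher. Uqcrh, the hinge protein beside cytochrome c1, was not called at a log2 difference of 0.22.

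In complex IV, all 9 measured members were called, led in size by the small subunit Cox7c at 87.1, 80.2 and 93.3 CPM in marrow and 141, 143 and 156 CPM in liver (1.69-fold, adjusted p = 1.72e-05). Cox7a2 was 1.54-fold higher and Cox7b 1.498-fold. Cox4i2, a low member described with the isoforms below, was also called.

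In complex V, 9 of 15 tested members were called, among them both large subunits of the catalytic head. Atp5b stood at 1467, 1211 and 1509.6 CPM in marrow and at 2229.6, 2527 and 2397 CPM in liver, without overlap. Atp5a1 was 1.56-fold higher (adjusted p = 4.48e-06). The membrane subunit Atp5j2 was 1.62-fold higher (adjusted p = 7.29e-06), and Atp5o, the stalk subunit known as OSCP, 1.44-fold (adjusted p = 1.40e-05). Atp5g2, Atp5l and Atp5e were not called, at log2 differences of 0.24, 0.20 and 0.18. Atp5g2 encodes the c subunit of the rotor ring, and its sister genes Atp5g1 and Atp5g3, which encode the same mature protein, had 55 and 0 counts in all over several transcripts.

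**Figure D2:**
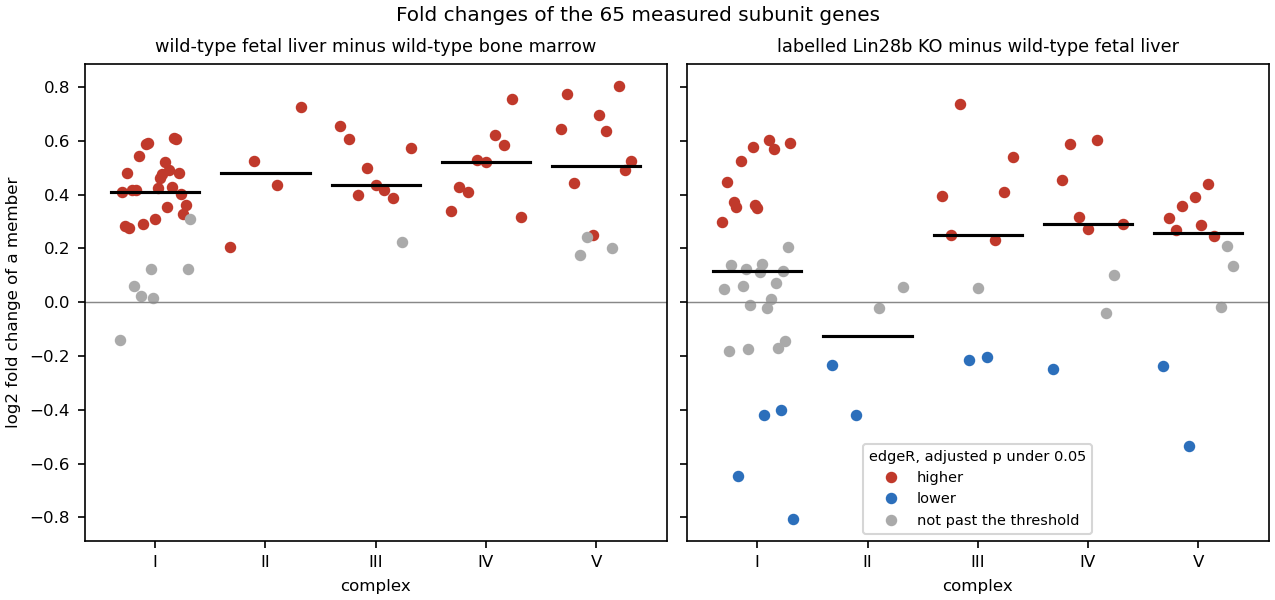
Log2 fold change (vertical axis) of each of the 65 measured members by complex (horizontal axis), for wild-type fetal liver against bone marrow (left) and the libraries with the Lin28b knockout label over wild-type liver (right); red and blue points were called higher and lower by edgeR, and black lines are medians. At left 54 points are red and 0 blue, and at right 30 are red and 11 blue.

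The promoters of the members were searched for 4 short motifs on both strands, in windows from 250 bases before to 50 bases after each RefSeq start (GRCm38.p6). Windows were found for 69 of the 86 members and for 10523 tested genes. The 69 include members that were not tested, so the shares of members and of tested genes are over unlike sets. The core GCGCATGCG of NRF1-type sites was in 8 members (11.6%) against 3.42% of tested genes. The ETS and GABP core CCGGAAG was in 17 members (24.6% against 17.5%), the YY1-type core AAGATGGCG in 7 (10.1% against 3.09%), and the SP1-type box GGGCGG in 29 (42.0% against 62.2%). Over all 32851 promoters of the same length the shares were 1.75%, 8.86%, 1.40% and 35.7%. No motif contains another. A match is a match of letters only. Below are the 80 bases before the start of 7 members, at least 1 from each complex, shown so that the place of the match can be seen. Capitals mark the NRF1-type core in Ndufa11 (chr17:56717682-56717761, plus strand) and Atp5g2 (chr15:102671048-102671127, minus strand), where overlapping matches on both strands join. They mark the ETS core or its reverse complement in Ndufb7 (chr8:83566678-83566757, plus strand), Sdhd (chr9:50603850-50603929, minus strand), Uqcr11 (chr10:80406822-80406901, minus strand), Cox6b1 (chr7:30626115-30626194, minus strand) and Atp5h (chr11:115419920-115419999, minus strand).
Ndufa11: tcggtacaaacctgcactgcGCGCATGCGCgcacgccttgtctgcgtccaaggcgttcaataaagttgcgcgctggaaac
Ndufb7: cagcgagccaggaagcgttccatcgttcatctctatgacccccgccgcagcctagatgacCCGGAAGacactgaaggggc
Sdhd: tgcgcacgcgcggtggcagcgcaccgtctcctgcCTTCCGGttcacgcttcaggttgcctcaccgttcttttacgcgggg
Uqcr11: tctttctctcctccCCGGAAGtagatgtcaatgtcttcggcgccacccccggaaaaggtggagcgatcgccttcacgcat
Cox6b1: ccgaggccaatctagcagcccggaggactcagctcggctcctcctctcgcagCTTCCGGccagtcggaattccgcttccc
Atp5g2: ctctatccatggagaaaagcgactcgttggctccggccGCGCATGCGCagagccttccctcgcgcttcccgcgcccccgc
Atp5h: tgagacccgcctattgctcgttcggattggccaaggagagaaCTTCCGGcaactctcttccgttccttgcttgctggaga

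In the fetal liver comparison, the 8 measured members with an NRF1-type match had a median log2 fold change of 0.34 and the 46 without one 0.43. For the ETS core the medians were 0.40 (15 members) and 0.42 (39 members). For the YY1-type core they were 0.59 (5 members) and 0.41 (49 members), and for the SP1-type box 0.41 (23 members) and 0.42 (31 members). Of the promoters shown, that of Sdhd belongs to a member with a large difference, 0.72 on the log2 scale, and that of Atp5g2 to one that was not called. Ndufa11 and Atp5h, at 0.28 and 0.25, were called with small differences.

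Other nuclear genes for mitochondrial proteins were counted in the same comparison. Of 74 tested mitochondrial ribosomal proteins, which help make the subunits encoded in mitochondrial DNA, 61 were called higher and 0 lower, with a median log2 fold change of 0.50. Import machinery and chaperones gave 18 higher and 0 lower of 21, among them the chaperonin Hspd1 (2.31-fold). Electron carriers and exchangers gave 15 higher and 0 lower of 22, among them cytochrome c, Cycs (1.70-fold). The citric acid cycle and pyruvate dehydrogenase list gave 14 higher and 3 lower of 23. The 3 lower ones were Pdk2, Pdp2 and Mpc1, a kinase and a phosphatase of pyruvate dehydrogenase and a pyruvate carrier subunit, and citrate synthase, Cs, was 1.58-fold higher. Assembly factors of the complexes gave 14 higher and 0 lower of 40.

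Of 17 tested regulators of mitochondrial gene expression, 2 were called in that comparison, both higher: Tfam, the packaging factor of mitochondrial DNA (1.45-fold, adjusted p = 0.00143), and the helicase Twnk (1.22-fold, adjusted p = 0.0364). The factor genes Gabpa, Yy1, Sp1 and Esrra were not called, at log2 differences of 0.05, -0.03, -0.15 and 0.06. Of 13 granulocyte markers, 12 were lower in fetal liver, and their sum was 5210 to 6792 CPM there against 11011 to 13028 CPM in marrow. S100a9 was at 0 in both tissues, which under this counting need not mean that its message was absent. Of 12 tested monocyte and macrophage markers, 1 was higher and 6 lower, with sums of 237 to 274 CPM in liver and 254 to 315 CPM in marrow. Megakaryocyte markers gave 0 higher and 4 lower of 6 (123 to 146 CPM against 359 to 530.2 CPM), and erythroid markers 1 higher and 4 lower of 19 (498 to 816 CPM against 595 to 856 CPM). Lymphoid markers gave 4 higher and 0 lower of 8, with sums of 166 to 201 CPM against 80.8 to 83.4 CPM. Stromal and endothelial markers gave 0 higher and 2 lower of 7, at no more than 10.7 CPM in all. Hepatocyte markers gave 0 higher and 1 lower of 13, with sums of 123 to 132 CPM in liver and 353 to 402 CPM in marrow. The part of such cells in the subunit result was not tested.

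Complex IV has subunits with tissue-specific forms, and their messages were low and uneven. Cox4i2 (NM_053091, chromosome 2, 152753916 to 152765039), a form known from lung and from low oxygen, stood at 1.04, 0.937 and 2.03 CPM in wild-type marrow and 5.27, 6.84 and 8.998 CPM in wild-type liver. The groups did not overlap (log2 difference 2.39, SE 0.70, adjusted p = 0.0179). With the Lin28b knockout label it was at 0.737, 0.293 and 0.812 CPM, below every wild-type library of either tissue, and the difference from wild-type liver was -3.49 on the log2 scale (SE 0.74, adjusted p = 0.00124). The inducible let-7 library held 10.7 CPM.

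Cox6a2 (NM_009943, chromosome 7, 128205435 to 128206366), the heart and muscle form of subunit 6a, stood at 1.59, 2.05 and 3.40 CPM in wild-type marrow and 7.17, 4.68 and 4.07 CPM in wild-type liver, and was not called between them. It was 1.26, 0.821 and 0.964 CPM in the libraries labelled Lin28b knockout, lower than in wild-type liver without overlap (log2 difference -2.38, adjusted p = 0.00114). Its general form Cox6a1 went the other way there, at 568, 612 and 581 CPM against 381, 385 and 406 CPM (1.502-fold, adjusted p = 4.78e-06). Cox7a1, the muscle form of subunit 7a, stayed at or below 0.953 CPM in every library, beside its general form Cox7a2 at 70.9 to 195 CPM.

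Ndufa4l2 (NM_001098789, chromosome 10, 127509274 to 127517154), a paralog of Ndufa4 known to be induced by low oxygen, stood at 12.996, 4.63 and 2.23 CPM in the libraries labelled Lin28b knockout and at 0.318, 0.162 and 0 CPM in wild-type liver, where it rested on 10 counts over 3 libraries. The libraries labelled Lin28b knockout were the highest of all, with 370 counts, and each other group held 10 or fewer. Since the gene passed the filter on low counts through the group where it is high, no fold or test is given for it. Ndufa4 itself stood at 269, 266 and 277 CPM in those libraries against 392.4, 399.6 and 478 CPM in wild-type liver, lower without overlap (log2 difference -0.65, SE 0.08, adjusted p = 1.19e-05).

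**Figure D3:**
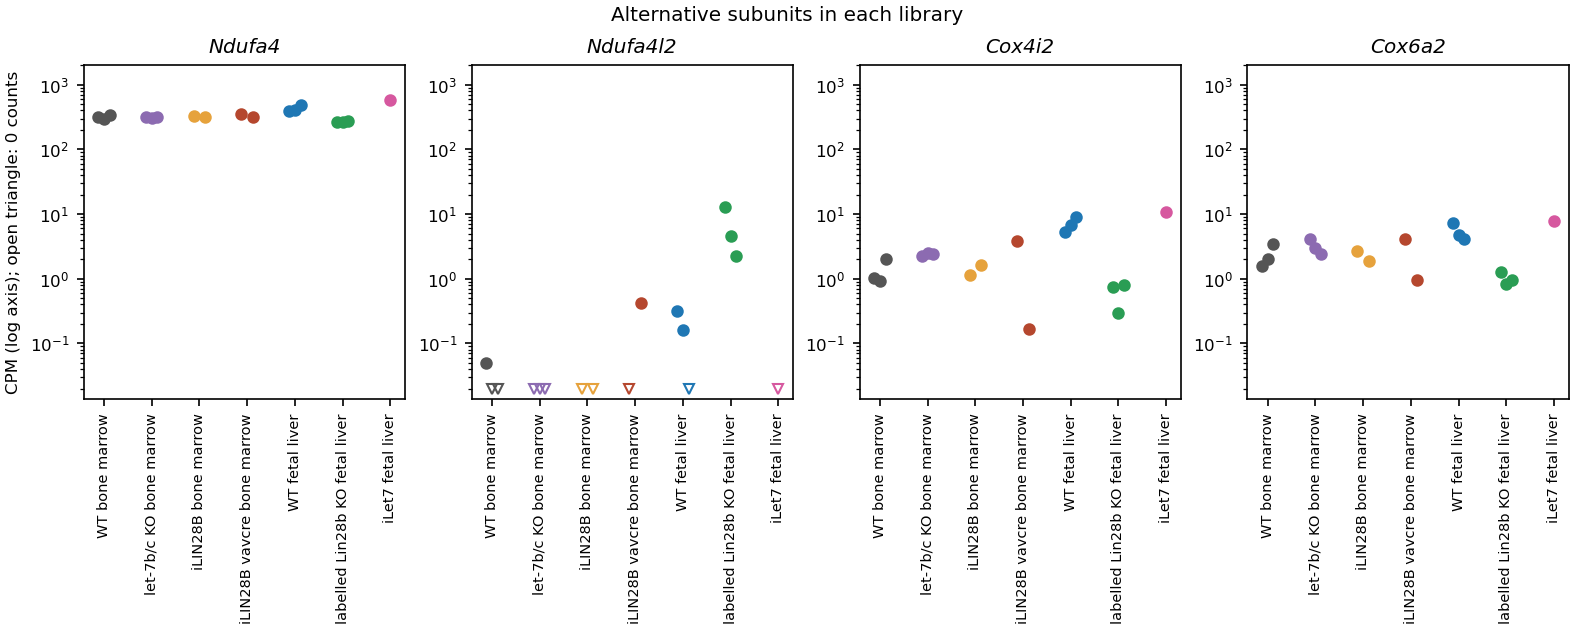
CPM of Ndufa4, its paralog Ndufa4l2, Cox4i2 and Cox6a2 (vertical axes, logarithmic and the same in all panels) in each library, by group, with 0 counts drawn as open triangles at the foot of the axis. For Cox4i2 and Cox6a2 the libraries labelled Lin28b knockout lie below both wild-type groups, and for Ndufa4l2 they lie above all other libraries.

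Members differed from wild-type fetal liver in both directions in the libraries labelled Lin28b knockout. Of the 74 tested members, 31 were called higher and 13 lower, against 20.8% and 23% of all genes called higher and lower. The 31 include Ndufa4l2, for which no test is given above. Of the 65 measured members, which leave it out, 30 were higher and 11 lower. The median of the measured members was 0.14 against 0.00 over all genes. This split moved with the scaling of the libraries. With total counts in place of TMM, 14 members were higher and 19 lower, the median of all genes moved by -0.19 and that of the measured members to -0.06, and the members stayed 0.13 above the median of all genes. None of the called members changed sign under that scaling. Summed over all members on TMM library sizes, these libraries held 18580.4 to 18952 CPM against 16753 to 18156 CPM in wild-type fetal liver. As a share of raw counts, the order was reversed, at 1.57% to 1.65% against 1.69% to 1.77% in wild-type liver. The direction of the summed difference thus depended on the scaling.

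These 3 libraries stood apart from wild-type fetal liver in the markers of other cells. All 19 tested erythroid markers were higher, and the list summed to 41636 to 48533 CPM against 498 to 816 CPM. Granulocyte markers gave 11 higher and 0 lower of 13, with sums of 5789 to 11175 CPM that overlap those of wild-type liver, 5210 to 6792 CPM. Those sums rest largely on Mpo, at a mean of 4046 against 5441 CPM and not called. Among the called ones, Ngp averaged 833 against 5.59 CPM and Ltf 546 against 4.62 CPM. Megakaryocyte markers gave 6 higher of 6 (612 to 1079.7 CPM against 123 to 146 CPM), monocyte and macrophage markers 6 higher and 0 lower of 12 (491 to 592 CPM against 237 to 274 CPM), and stromal and endothelial markers 6 higher and 0 lower of 7 (32.2 to 128 CPM against 4.87 to 7.35 CPM). Lymphoid markers gave 0 higher and 5 lower of 8 (44.7 to 52.6 CPM against 166 to 201 CPM). Of 13 tested hepatocyte markers, 11 were higher and 1 lower, with sums of 477 to 1534 CPM against 123 to 132 CPM, and Apoc3, Serpina1a, Ahsg and Tat were at 0. Reads that mapped to several places numbered 34.5 to 40.6 per 100 unique reads in these libraries and 11.4 to 16.3 elsewhere. The part of these differences in the subunit result was not tested.

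By complex, 11 of 31 measured members of complex I were higher and 4 lower, and 0 of 4 and 2 in complex II. In complex III it was 6 of 9 and 2, in complex IV 6 of 9 and 1, and in complex V 7 of 12 and 2. Uqcr11, a small subunit of complex III, showed the largest called rise of the measured members, at 205, 212 and 215 CPM against 125, 120.2 and 134 CPM (1.67-fold, SE of the log2 value 0.07, adjusted p = 5.82e-07). Cyc1 stood at 429, 443 and 418 CPM, above the wild-type liver libraries (1.31-fold). Its neighbours Uqcrc2 and Uqcrb were lower by small steps (0.869 and 0.861 of wild type, adjusted p = 0.0378 and 0.0378). With RLE size factors, a different scaling, those 2 calls were lost at adjusted p = 0.172 and 0.166.

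In complex I, the NADH-binding core subunit Ndufv1 stood at 296, 309.5 and 281 CPM against 182, 202 and 204 CPM (1.51-fold, adjusted p = 3.27e-06). Between wild-type liver and marrow it was not called. The accessory subunits Ndufb7 and Ndufb10 were 1.52-fold and 1.49-fold higher. Ndufv3, another subunit of the NADH-binding module, stood lower, at 15.1, 14.7 and 13.4 CPM against 24.4, 24.3 and 26.9 CPM. It is the only measured member with several RefSeq transcripts, and reads that fitted both of its 2 transcripts were set aside. Whether its whole message was lower therefore cannot be read from these counts.

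In complex II, Sdhb stood at 230.0, 227 and 221 CPM against 286, 291 and 328 CPM in wild-type liver, lower without overlap (adjusted p = 0.000703). Sdha was lower as well (0.851 of wild type, adjusted p = 0.00527), while Sdhc and Sdhd were not called, at log2 differences of -0.02 and 0.06. In complex V, Atp5b stood at 3029.6, 2957 and 2899 CPM, above wild-type liver, and Atp5a1 at 1765, 1744 and 1647 CPM, below it (0.848 of wild type, adjusted p = 0.00742). The rotor gene Atp5g2 stood at 269, 262 and 263 CPM against 367, 385 and 399 CPM (0.690 of wild type, adjusted p = 0.000240). Atp5h, the d subunit of the stalk, was 1.31-fold higher.

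Among the other mitochondrial lists in that comparison, ribosomal proteins gave 16 higher and 12 lower of 74, and assembly factors 8 higher and 13 lower of 40. Of all genes, 20.8% were called higher and 23% lower there, so the higher counts of both lists lay near the share of all genes. Of the 17 regulators, Polg, the polymerase of mitochondrial DNA, was higher (1.84-fold), and 7 were lower, Tfam among them. Cycs and Slc25a4, the ADP and ATP exchanger, were lower (0.707 and 0.469 of wild type).

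**Figure D4:**
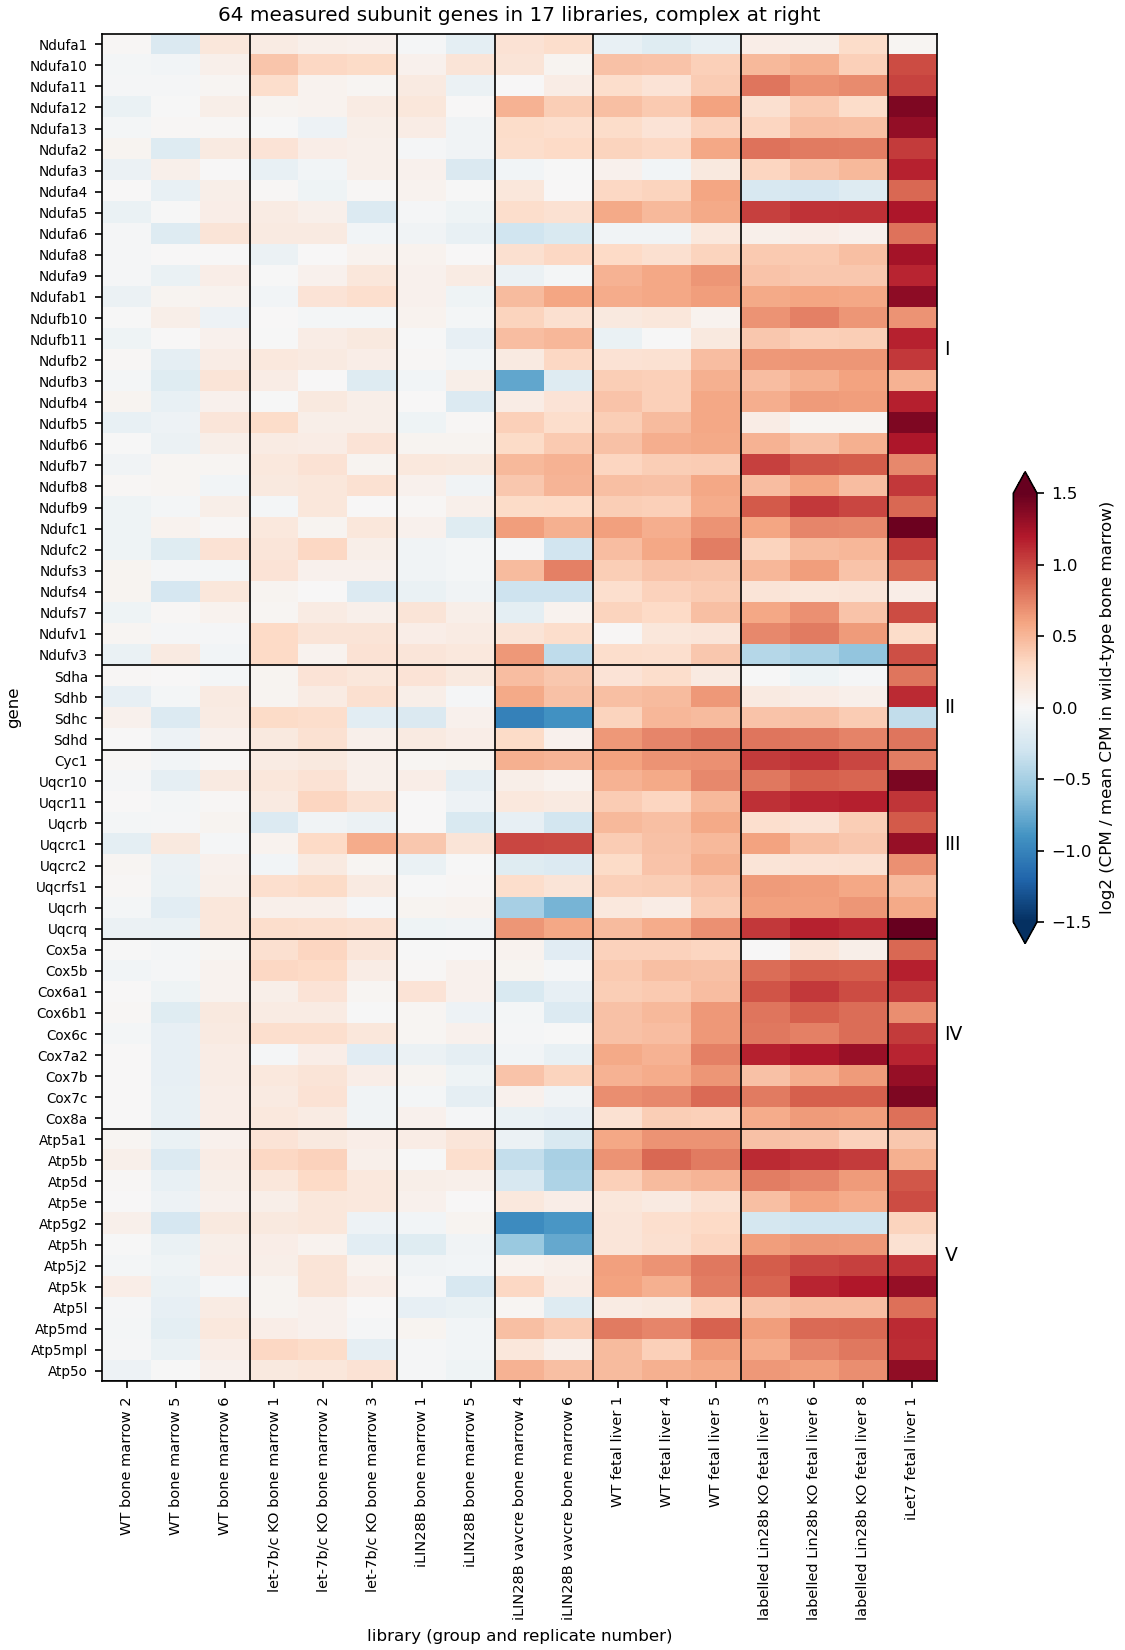
Heat map of 64 of the 65 measured members (rows, by complex) in the 17 libraries (columns, by group), coloured by the log2 ratio of CPM to the mean of wild-type bone marrow, with the colour scale running from -1.5 to 1.5. Most rows are above marrow in the fetal liver columns, and the vavcre and inducible let-7 columns hold rows both above and below the libraries of their tissue.

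Adult marrow labelled inducible LIN28B came from 2 lines. Over both lines, 12 of 74 tested members were higher than in wild-type marrow and 3 lower, against 6.59% and 7.86% of all genes. The higher count was 4 without wild-type marrow replicate 2, 6 without wild-type marrow replicate 5 and 5 without inducible LIN28B replicate 1. Of the 65 measured members, 6 lay above every wild-type marrow library in all libraries of both lines, and 0 lay below. Among all genes averaging at least 10 CPM, 9.79% lay above and 6.46% below, so the 6 were near the share of such genes. In the line lacking vavcre, 0 members were called in either direction in edgeR's test, 2 were higher and 0 lower at an unadjusted p under 0.05, and DESeq2 called 0. Of all genes, 0.509% were called higher and 0.295% lower there by edgeR, and DESeq2 called 1.86% and 1.51% of the genes it tested. At an unadjusted p under 0.05, 5.38% of all genes were higher and 5.27% lower. In the vavcre line 23 members were higher and 6 lower than in wild-type marrow, against 12.5% and 14.3% of all genes. Of 12 tested monocyte and macrophage markers, 0 were higher and 8 lower over both lines. Their sum was 75.3 to 99.5 CPM in the line lacking vavcre and 130 to 188 CPM in the vavcre line, against 254 to 315 CPM in wild-type marrow. Granulocyte markers gave 0 higher and 2 lower of 13, and stromal and endothelial markers 0 higher and 2 lower of 7. The part of such cells was not tested.

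In the vavcre line, 14 of 34 tested members of complex I were higher than in wild-type marrow and 0 lower in edgeR's test. At an unadjusted p under 0.05, 17 were higher and 5 lower, against 17.3% and 21.7% of all genes. DESeq2 called 15 higher and 3 lower, against 13.7% and 16.6%. Of 15 tested members of complex V, 2 were higher and 4 lower. Uqcrc1 (NM_025407, chromosome 9, 108936648 to 108949641), a core subunit of complex III, stood at 1349 and 1342 CPM against 607, 748 and 664 CPM in wild-type marrow (1.999-fold, adjusted p = 4.62e-05). It was 892 and 768 CPM in the line lacking vavcre, where it was not called. Ndufs3, a core subunit of complex I, was 1.54-fold higher in the vavcre line (adjusted p = 0.000216) and Uqcrq 1.54-fold (adjusted p = 0.000192).

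Sdhc (NM_025321, chromosome 1, 171129157 to 171150640) stood at 56.9 and 61.1 CPM in the vavcre libraries, against 119.6, 99.2 and 125 CPM in wild-type marrow and 98.3 and 119.5 CPM in the line lacking vavcre. The vavcre values lay below all the others (0.515 of wild-type marrow, adjusted p = 0.000157). Its partner Sdhb, at 312 and 285 CPM, was 1.42-fold higher, so members of complex II moved apart. Atp5g2 stood at 169 and 177 CPM against 342, 273 and 358 CPM (0.533 of wild-type marrow, adjusted p = 3.51e-05). Atp5h, Uqcrh and Atp5b were also lower, at 0.633, 0.664 and 0.747 of wild-type marrow, while Atp5o was 1.40-fold higher.

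The difference between the lines was tested directly. With vavcre, 19 members were higher and 9 lower than without it, against 9.37% and 11.3% of all genes. Atp5g2 gave the smallest p, with a log2 difference of -0.91 (SE 0.12, adjusted p = 0.000118), followed by Atp5o at 0.53 (SE 0.07, adjusted p = 0.000214). The summed CPM of complex V divided by that of complex I was 0.896 and 0.983 in the vavcre libraries, 1.22 and 1.36 in the line lacking vavcre, 1.18 to 1.29 in wild-type marrow and 1.41 to 1.52 in wild-type liver. Most of the complex V sum came from Atp5b and Atp5a1, so the ratio does not describe its members as a class. Against wild-type marrow, the measured members of complex V had a median log2 value of -0.0074 in the vavcre line. The median was 0.24 for complex I and -0.09 over all genes. Mitochondrial ribosomal proteins gave 28 higher and 1 lower of 74 between the lines. Monocyte and macrophage markers gave 3 higher and 1 lower of 12, granulocyte markers 2 higher and 0 lower of 13, and erythroid markers 3 and 3 of 19. The vavcre libraries also had counts in fewer genes, 12079 and 12635 against 13786 and 13882 without vavcre, and the part of this in the result was not tested. With only the libraries of these 2 groups in the fit, 2 members were higher and 1 lower, and without inducible LIN28B replicate 5, in the full fit, 9 were higher and 6 lower.

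**Figure D5:**
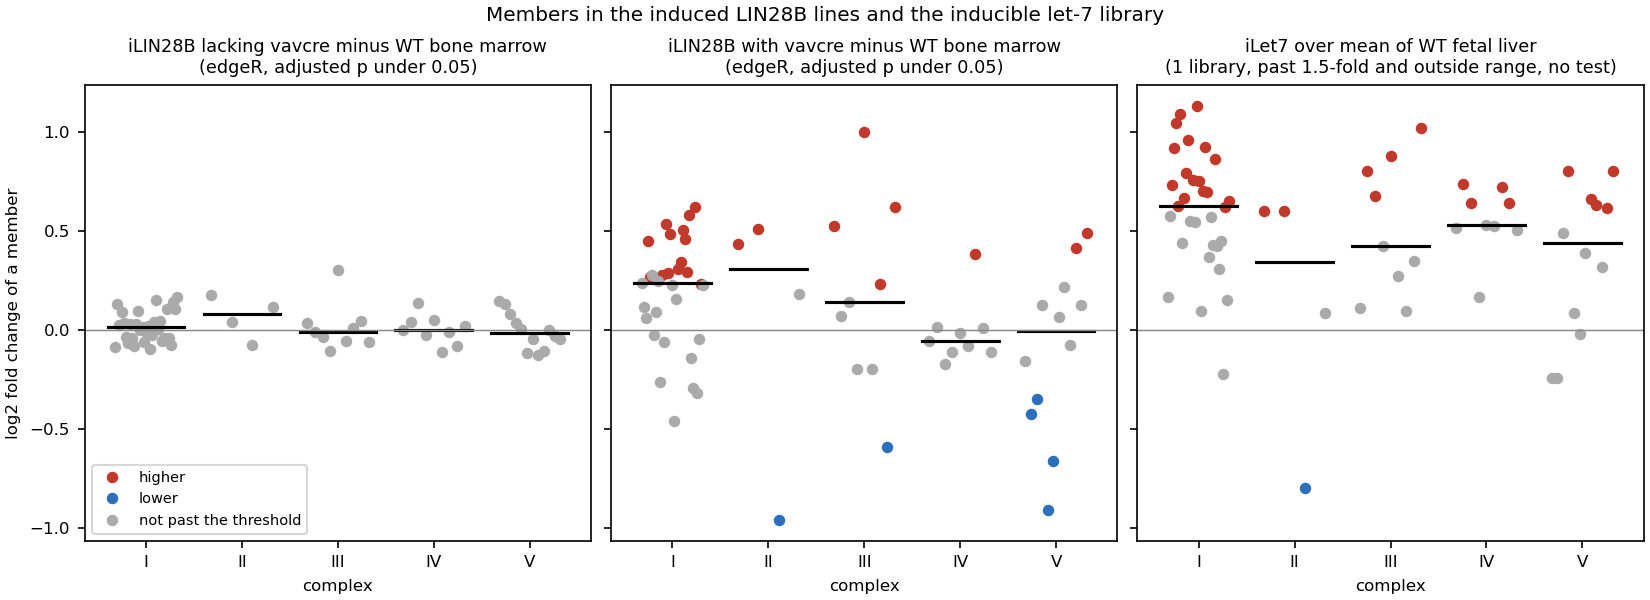
Log2 fold change of the 65 measured members by complex (horizontal axis), with medians as black lines. The LIN28B line lacking vavcre (left) and the vavcre line (middle) are set against wild-type marrow, with edgeR's calls higher in red and lower in blue. At right is the log2 ratio of the inducible let-7 library to the mean of wild-type fetal liver. There, red and blue mark ratios past 1.5-fold higher and lower that lay outside the wild-type range, from 1 library without a test. No point is coloured for the line lacking vavcre, and 32 are red and 1 blue for the inducible let-7 library.

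Set against wild-type fetal liver, marrow of the inducible LIN28B lines held 0 members higher and 50 lower of 74 in edgeR's test. Of all genes, 15% were called higher and 17.7% lower. At an unadjusted p under 0.05, 2 members were higher, against 19.3% of all genes, and DESeq2 called 1 member higher, against 17.3%. Granulocyte markers gave 11 higher and 0 lower of 13, with sums of 6228 to 7173 CPM in the line lacking vavcre and 9752 to 14534 CPM in the vavcre line against 5210 to 6792 CPM in wild-type liver. Erythroid markers gave 8 higher and 1 lower of 19, megakaryocyte markers 3 and 0 of 6, monocyte and macrophage markers 2 and 4 of 12, and lymphoid markers 0 and 4 of 8. The part of such cells was not tested. The LIN28B libraries are the same as in the comparison with marrow, and the liver libraries the same as in that of the wild-type tissues. Atp5b stood at 1394 and 1663 CPM in the line lacking vavcre and 1089 and 995 CPM in the vavcre line, against 2229.6, 2527 and 2397 CPM in wild-type liver (log2 difference -0.92, SE 0.09, adjusted p = 2.66e-06). Cox7c, at 85.4 and 79.1 CPM and 91.1 and 83.9 CPM, was also below every wild-type liver library (0.578 of their level). With total counts in place of TMM, which moved the median of all genes by 0.11, 5 members were higher and 37 lower.

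In the let-7b/c knock-out, 1 member was called higher than in wild-type marrow and 0 lower, against 1.33% and 0.922% of all genes. At an unadjusted p under 0.05, 16 were higher and 0 lower, against 7.52% and 6.98% of all genes. DESeq2 called 9 higher and 0 lower, against 4.57% and 3.14% of the genes it tested. The called member was Ndufa10, an accessory subunit of complex I, at 242, 224 and 219.9 CPM against 177, 175 and 190.1 CPM (1.26-fold, SE of the log2 value 0.07, adjusted p = 0.0254). The groups did not overlap, and the knock-out libraries lay near the wild-type liver libraries at 246, 244 and 232 CPM. Its call was lost with only the libraries of these 2 groups in the fit (adjusted p = 0.0761) and without knock-out replicate 1 or 2 or wild-type marrow replicate 2 or 5 (adjusted p = 0.0582 to 0.0900). The measured members had a median log2 fold change of 0.12 against 0.00 over all genes, and 57 of 65 were above 0, as were 50.4% of all genes. Monocyte and macrophage markers summed to 1735 to 2215 CPM in the knock-out and 254 to 315 CPM in wild-type marrow, with 4 of 12 tested ones called higher and 0 lower. Most of the knock-out sum was Ccr2, at a mean of 1471 CPM against 59.7 CPM. Vcam1, C1qa, C1qb and Mrc1 had lower means in the knock-out and were not called. Megakaryocyte markers gave 0 higher and 3 lower of 6, and the part of such cells was not tested.

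The inducible let-7 group is 1 library, so it has no replicate check and no test. Ratios were taken on CPM + 0.5 against the mean of wild-type fetal liver. Counting ratios past 1.5-fold that also lay outside the range of the wild-type liver libraries, 33 of the 74 tested members were higher and 5 lower, against 17.8% and 32.8% of all genes. With total counts in place of TMM, 21 were higher and 5 lower, against 15.3% and 34.4%. By the 1.5-fold rule on TMM library sizes, 32 of the 65 measured members were higher and 1 lower. No share of all genes averaging at least 10 CPM was taken for that rule. Of the 65 measured members, 59 were above the range of the wild-type liver libraries and 4 below it. Of all tested genes 32.6% were above it and 46.6% below, and of those averaging at least 10 CPM 47.2% and 44.2%. The median ratio was 1.49 over the measured members, 0.879 over all tested genes and 1.02 over those averaging at least 10 CPM. Granulocyte markers summed to 18911 CPM in this library against 5210 to 6792 CPM in wild-type liver, monocyte and macrophage markers to 729 CPM against 237 to 274 CPM, and erythroid markers to 276 CPM against 498 to 816 CPM, and their part in the ratios was not tested. Its summed CPM over all members, 22854, was the highest of the 17 libraries.

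Of the measured members, 17 of 31 in complex I passed 1.5-fold in that library, 2 of 4 in complex II, 4 of 9 in complex III, 4 of 9 in complex IV and 5 of 12 in complex V. Ndufb11 stood at 292 CPM against 122, 130.5 and 146 CPM in wild-type liver, a ratio of 2.19, and Ndufa3 and Ndufa13 had ratios of 2.13 and 2.06. The 4 members below the wild-type range were Sdhc, Atp5b, Atp5a1 and Ndufs4, at ratios of 0.576, 0.844, 0.845 and 0.856. Sdhc, at 89.2 CPM, was thus low in this library and in the vavcre libraries. The ratio of the complex V sum to the complex I sum was 0.967, near that of the vavcre libraries. Against wild-type liver, the median ratio of the measured members was 1.54 in complex I and 1.35 in complex V. Counts in this library fell on 10144 genes, the fewest of the 17, and the part of this in the ratios was not tested.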

How the data were processed

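Per the labels' protocols, RNA was taken with Trizol and libraries were made with SMARTer ultra low input kits. Tools listed in the submitters' processing notes are cutadapt, TopHat2 and HTSeq, with build mm10 and no versions. The authors deposited whole-number read counts per RefSeq transcript, 33818 accessions in each of 17 libraries. Counts were summed by gene symbol to 24416 genes. Lines that name no transcript were kept out of library sizes: ambiguous reads were 23.8% to 29.8% and reads in no feature 8.87% to 19.3%. This lowers genes with several overlapping transcripts.

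Genes passing edgeR's filterByExpr were fitted together with edgeR 4.0.16 in R 4.3.3 (TMM, quasi-likelihood test, 1 mean for each of 7 groups, 10 residual degrees of freedom). P-values were adjusted by Benjamini and Hochberg over 13558 genes. The fit was tested on simulated data. DESeq2 1.42.0, other scalings, no filter, single-transcript genes, only the groups compared and leaving out each library were alternatives. Promoters and coordinates came from RefSeq (GRCm38.p6). Low members are those under 10 CPM on average, and the floor for a library is 3 counts.

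Named members are, per complex and comparison, up to 3 called ones with the smallest p in the direction with more calls, up to 2 in the other, the extremes, the Sdh genes and isoforms. Others were named after their values were seen. The members and lists were chosen with earlier results of these data known. Single results on 1 member and 1 marker are not reported here.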

Additional observations from a re-analysis of the deposited data

Results flagged for a closer look

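Levels differed between the inducible LIN28B line with vavcre and the line lacking it in edgeR's test (adjusted p under 0.05) for 19 members that were higher with vavcre and 9 that were lower. No group carried vavcre alone, so the line, vavcre and the effect of LIN28B cannot be told apart in this difference. Each group has 2 libraries. On the log2 scale, with minus without vavcre, the complex I differences were 0.66 for Ndufs3, 0.63 for Ndufc1 and 0.55 for Ndufb11. In complex II, Sdhb was at 0.47, Sdha at 0.26 and Sdhc at -0.88. In complex III, the values were 0.49 for Cyc1, 0.68 for Uqcrq, 0.70 for Uqcrc1 and -0.64 for Uqcrh. In complex IV, Cox7b was at 0.39 and Cox6a1 at -0.31. In complex V, Atp5o was at 0.53 and Atp5md at 0.41, against -0.91 for Atp5g2 and -0.55 for Atp5h.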

How the results depend on the processing

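The labels give several groups the same replicate numbers, but deviations of same-numbered libraries correlated at only -0.083 to 0.030, so the numbers were not taken as pairs. With the number as a replicate block, which leaves 4 residual degrees of freedom, the fetal liver comparison kept 38 calls higher and 0 lower, the labelled Lin28b knockout had 12 and 2, LIN28B over both lines 1 and 0, the let-7b/c knock-out 0 higher, and the comparison of the vavcre lines 0 and 2. Settings that changed a count of members by over 1.5 times were these. For the labelled Lin28b knockout, total counts gave 14 higher with a median of -0.0553 (TMM: 0.14), and no filter 8 lower. For LIN28B against marrow, only the groups compared gave 4 higher. For the let-7b/c knock-out, DESeq2 gave 9 higher and only the groups compared 0. For the vavcre lines, only the groups compared gave 2 higher and 1 lower. For LIN28B against fetal liver, where TMM gave 0 higher, RLE, DESeq2, only the groups compared and single-transcript genes each gave 1, and total counts 5. For the inducible let-7 library, total counts gave 21 higher.

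Alternatives chosen after seeing the data gave, for LIN28B against marrow, 0 higher and 0 lower in the line lacking vavcre and 23 and 6 in the vavcre line. In the line lacking vavcre the log2 value was -0.0402 for Ndufs3, -0.0585 for Uqcrq, -0.0437 for Atp5o and 0.00252 for Atp5g2, each of opposite sign to the value over both lines. Against fetal liver, the vavcre line gave 4 higher. Leaving the inducible let-7 library out of the fit gave 1 higher for that comparison, and leaving the vavcre libraries out gave 4 higher for the let-7b/c knock-out. The causes were not tested.

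Leaving out 1 library at a time gave 48 to 59 members higher and 0 lower in fetal liver, 26 to 31 higher and 11 to 13 lower in the labelled Lin28b knockout, 4 to 12 and 3 to 6 for LIN28B against marrow, 0 to 4 and 0 for the let-7b/c knock-out, 9 to 16 and 6 to 10 for the vavcre lines, and 0 to 1 and 43 to 53 for LIN28B against fetal liver. Where a group was left with 1 library, that library was assumed to vary like the other groups. In the shorter promoter window, 6 members held the NRF1-type, 15 the ETS, 7 the YY1-type and 24 the SP1-type motif. Groups of 2 or 3 libraries limit every test, and members under the floor of 3 counts in a library cannot be read there.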
